A study of Mus musculus with 25 samples.

Results

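The clustered histone genes are the many short copies of the H1, H2A, H2B, H3 and H4 genes that lie side by side in a few places of the mouse genome. They were taken as every gene whose symbol begins with Hist1h, Hist2h, Hist3h or Hist4h, which gave 58 of the 15768 genes listed in the expression tables of pituitary tumors from shRb mice. They comprise 5 H1, 14 H2A, 17 H2B, 10 H3 and 12 H4 genes. In the GENCODE vM21 annotation of mm10, 48 lie on chromosome 13, 6 on chromosome 3, 3 on chromosome 11 and 1 on chromosome 6.

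All mice carried both transgenes of the model, a doxycycline (dox)-inducible, GFP-linked miR-E shRNA against Rb at the Col1a1 locus and the M2-rtTA activator driven by the broadly active Rosa26 promoter. Dox in the drinking water therefore induces the shRNA in many tissues, the line rests on 1 shRNA and 1 targeted clone, and mice that never received dox were not analysed here. In the long-term experiment, libraries were made by poly(A) enrichment from adult mice with 6 weeks of dox (6w+dox, 3 females), 12 weeks of dox (12w+dox, 2 females and 2 males) or 6 weeks of dox followed by 6 weeks without it (12w-res, 3 females and 2 males). In the short-term experiment, libraries were made by rRNA depletion from mice with 16 weeks of dox (16w +dox, 3 males) and from mice taken 1 day (1d -dox, 4 females), 3 days (3d -dox, 3 males) or 5 days (5d -dox, 3 females) after dox removal. Sex follows the group in the short-term experiment, so that sex and time without dox cannot be told apart when 1d -dox or 5d -dox mice are compared with 16w +dox mice. The 2 experiments were normalised apart and are reported apart. Each table held the whole pituitary tumor, in which fewer cells of a type and less RNA per cell cannot be told apart.

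Histone proteins wrap DNA into nucleosomes, with H2A, H2B, H3 and H4 forming the core and H1 binding the linker DNA. Most clustered genes are transcribed during S phase, when new DNA has to be packed, and NPAT and CASP8AP2 act at their promoters. Their mRNAs usually have no introns and no poly(A) tail: they end a few bases after a conserved stem-loop that is bound by SLBP and cut with the help of the U7 snRNP. Some members also give polyadenylated transcripts, often in cells that have left the cell cycle, and those are the transcripts that poly(A) enrichment retains. RB restrains the E2F factors, which activate many genes of S phase.

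The stem-loop is shown because it is the feature that sets these mRNAs apart from nearly all others. It was found in a GENCODE vM21 transcript of 38 of the 58 members, and in 0.311% of all protein-coding genes (68 of 21877). Of the 20 members without it, 14 have an annotated transcript that ends at the stop codon, before the place where the loop would lie. The 16 bases of the loop were of 8 kinds. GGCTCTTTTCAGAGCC was found in 3 H1, 6 H2A, 8 H2B and 3 H3 genes, whereas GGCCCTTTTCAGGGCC was found only in H4 genes, 6 in all. Hist1h3g, the member with the largest fitted decrease in 12w-res mice against 12w+dox mice, is the only one with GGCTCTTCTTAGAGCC. The sequences below run 5′ to 3′ as in the transcript, with the 16 bases of the stem-loop in capitals and 5 bases on either side.
Hist1h1c (H1): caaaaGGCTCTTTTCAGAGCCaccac
Hist1h2ad (H2A): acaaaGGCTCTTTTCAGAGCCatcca
Hist1h2bp (H2B): acaaaGGCTCTTTTCAGAGCCaccca
Hist1h3c (H3): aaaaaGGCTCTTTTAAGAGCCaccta
Hist1h3g (H3): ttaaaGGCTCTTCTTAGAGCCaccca
Hist1h4h (H4): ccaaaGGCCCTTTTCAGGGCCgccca
Hist3h2a (H2A): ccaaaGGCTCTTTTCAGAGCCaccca

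The promoters were read from RefSeq (GRCm38.p6, the assembly of mm10) as the 250 bases before and 50 bases after each start, for the 51 members that matched. On either strand, TATAAA, the core of the TATA box, was found in 62.7% of them and in 14.8% of the promoters of all protein-coding genes. CCAAT, the core bound by NF-Y, was found in 84.3% against 42.3% of all genes, in every H1, H2A, H2B and H3 promoter and in 27.3% of the H4 promoters. The octamer ATTTGCAT, bound by POU factors such as OCT1, was found in 25.5% against 1.90% of all genes, and only in H2A (46.2%) and H2B (50%) promoters. TTTNNCGC, an E2F-like pattern in which N is any base, was found in 29.4% against 7.16% of all genes. By class it was found in 46.2% of the H2A, 42.9% of the H2B, 20% of the H1, 18.2% of the H4 and 0% of the H3 promoters. Each motif was searched apart, also where matches overlapped, and a match is a description of the window and not of binding. Below are the promoters of 4 members named in the results, 1 each of H1, H2A, H3 and H4. Matches to the 4 motifs on either strand are in capitals. Hist1h4d was among the members of highest level in the short-term table and was called in no comparison. It holds CCAAT, which was found in 27.3% of the H4 promoters.
Hist1h1c (H1, chr13:23738557-23738856, + strand): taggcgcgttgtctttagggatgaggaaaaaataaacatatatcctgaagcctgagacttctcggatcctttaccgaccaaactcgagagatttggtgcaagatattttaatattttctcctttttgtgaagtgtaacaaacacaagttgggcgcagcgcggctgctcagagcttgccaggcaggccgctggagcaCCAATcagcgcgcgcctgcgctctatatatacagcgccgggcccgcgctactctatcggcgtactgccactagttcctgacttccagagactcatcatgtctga
Hist1h2ah (H2A, chr13:22035594-22035893, - strand): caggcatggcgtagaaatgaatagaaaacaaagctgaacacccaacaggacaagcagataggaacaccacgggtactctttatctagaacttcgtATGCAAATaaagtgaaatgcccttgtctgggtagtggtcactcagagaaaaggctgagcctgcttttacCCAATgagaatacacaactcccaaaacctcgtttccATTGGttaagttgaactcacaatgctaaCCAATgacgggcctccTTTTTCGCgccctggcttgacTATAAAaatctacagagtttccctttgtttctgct
Hist1h3g (H3, chr13:23535168-23535467, + strand): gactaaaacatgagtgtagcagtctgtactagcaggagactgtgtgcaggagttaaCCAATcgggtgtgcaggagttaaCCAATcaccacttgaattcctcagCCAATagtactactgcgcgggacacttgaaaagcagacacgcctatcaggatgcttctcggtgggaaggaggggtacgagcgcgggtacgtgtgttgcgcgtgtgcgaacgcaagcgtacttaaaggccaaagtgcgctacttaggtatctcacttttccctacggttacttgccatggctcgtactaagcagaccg
Hist1h4d (H4, chr13:23581318-23581617, + strand): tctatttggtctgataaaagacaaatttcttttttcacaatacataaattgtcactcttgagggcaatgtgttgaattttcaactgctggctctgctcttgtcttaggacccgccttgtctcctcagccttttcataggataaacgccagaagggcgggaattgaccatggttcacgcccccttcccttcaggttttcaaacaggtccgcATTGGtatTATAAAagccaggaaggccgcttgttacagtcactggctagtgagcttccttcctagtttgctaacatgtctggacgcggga

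The 12 long-term libraries held 19066053 to 28968476 reads on genes and the 13 short-term libraries 9573101 to 13036900. Values are given in FPM, the authors' size-factor scaled counts, in which 1 read was worth 0.0279 to 0.0590 FPM in the long-term and 0.0204 to 0.0305 FPM in the short-term table. The knock-down followed the labels. Rb1, the targeted gene, was at 3.16 ± 1.70 FPM (SD, n = 3) in 6w+dox, 3.21 ± 0.70 FPM (n = 4) in 12w+dox and 18.2 ± 1.66 FPM (n = 5) in 12w-res mice, and was called higher in 12w-res than in 12w+dox mice. In the short-term table mean Rb1 was 4.19 FPM at 16w +dox, 4.46 FPM at 1 day, 5.01 FPM at 3 days and 5.12 FPM at 5 days, and was called in none of the comparisons there. Mean GFP, which is linked to the shRNA, went from 1247 FPM at 16w +dox to 606 FPM at 1 day, 122 FPM at 3 days and 11.7 FPM at 5 days. Melanotroph and corticotroph markers (Pomc, Pcsk1, Pcsk2, Tbx19, Pax7 and Neurod1) were present in every group, with at least 96004 summed FPM in each long-term and 12471 summed FPM in each short-term mouse.

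The number and the kind of members seen differed between the experiments. The short-term table listed all 58 members and the long-term one listed 37 of them, and 21 members were listed in the short-term table alone, where they held 27.3% of the reads of all members. Members took 0.239 to 0.493% of the reads on genes in the rRNA-depleted libraries (25041 to 53457 reads) and 0.0160 to 0.0391% in the poly(A)-enriched libraries (3587 to 9491 reads). Mice, stage and library type all differ between the tables, so these differences cannot be told apart. In the long-term table the median member had 17.5 reads in the median mouse, 29 of 37 members had under 50 reads there, and 12 members had 0 reads in 1 mouse or more. In the short-term table the median was 381 reads and no member had 0 reads in any mouse.

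The members with most reads also differed. After poly(A) enrichment 5 members held 84.1% of all member reads. These were Hist1h1c, which encodes the linker histone H1.2 (28.6%), the H2B genes Hist1h2bc (23.8%), Hist3h2ba (13.2%) and Hist2h2be (10.1%), and the H2A gene Hist3h2a (8.46%). H3 and H4 genes held only 2.15% and 5.11%. In the short-term table the 5 members with most reads held 43.6%, led by the linker histone genes Hist1h1c (15%), Hist1h1e (12.7%) and Hist1h1d (6.25%), followed by Hist1h4d (6.07%) and Hist1h2ak (3.59%). H3 genes held 10.3% and H4 genes 19.7% there. Across the 37 members in both tables, Spearman's rho of the total reads was 0.13, given as a description since the points share their libraries.

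Levels of different members can be compared only per length. Over the single-exon members (32 in the long-term table), and per kilobase of the RefSeq gene, mean levels in the long-term table were highest for Hist1h1c (92.3 FPM per kb), Hist3h2ba (68.4), Hist3h2a (39.7), Hist1h4i (11.7) and Hist2h2be (9.04). In the short-term table, with 53 such members, they were highest for Hist1h1c, followed by Hist1h1e (157 FPM per kb), Hist1h4d (145), Hist1h1d (77.5) and Hist1h2ak (64.9). Hist3h2a overlaps Trim17 and Hist3h2ba overlaps a predicted gene, so part of their reads may belong to the neighbours.

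The members also differed in the annotated ends of their transcripts. A polyadenylation signal, AATAAA, lay in the last 50 bases of a transcript of 11 members, against 65.8% of all protein-coding genes. Of these, the 10 in the long-term table held 64.2% of the member reads, at a median of 3.15 FPM per member against 0.624 FPM for the other 27. With members that have a transcript of more than 1 exon added, 11 members held 88.0% of the reads in the long-term table. The 11 members with AATAAA held 23.7% of the member reads in the short-term table, at a median of 7.58 FPM against 9.94 FPM for the other 47.

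Summed over all members, the long-term levels were 328, 346 and 258 FPM in the 6w+dox mice, 187, 220, 292 and 173 FPM in the 12w+dox mice and 250, 199, 211, 212 and 246 FPM in the 12w-res mice. The 12w-res mice lay within the range of the 12w+dox mice, and the 2 groups overlapped in the summed level of every class. The means were 311 ± 46.4 FPM (SD, n = 3), 218 ± 53.3 FPM (n = 4) and 224 ± 22.9 FPM (n = 5). In the short-term table the sums were 859, 669 and 862 FPM at 16w +dox, 1171, 1172, 1333 and 835 FPM at 1 day, 839, 884 and 1027 FPM at 3 days and 856, 1062 and 987 FPM at 5 days. Replicate 2 of 16w +dox was the lowest of the 13 mice, and replicate 4 of 1d -dox lay below 2 of the 3 16w +dox mice.

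**Figure D1:**
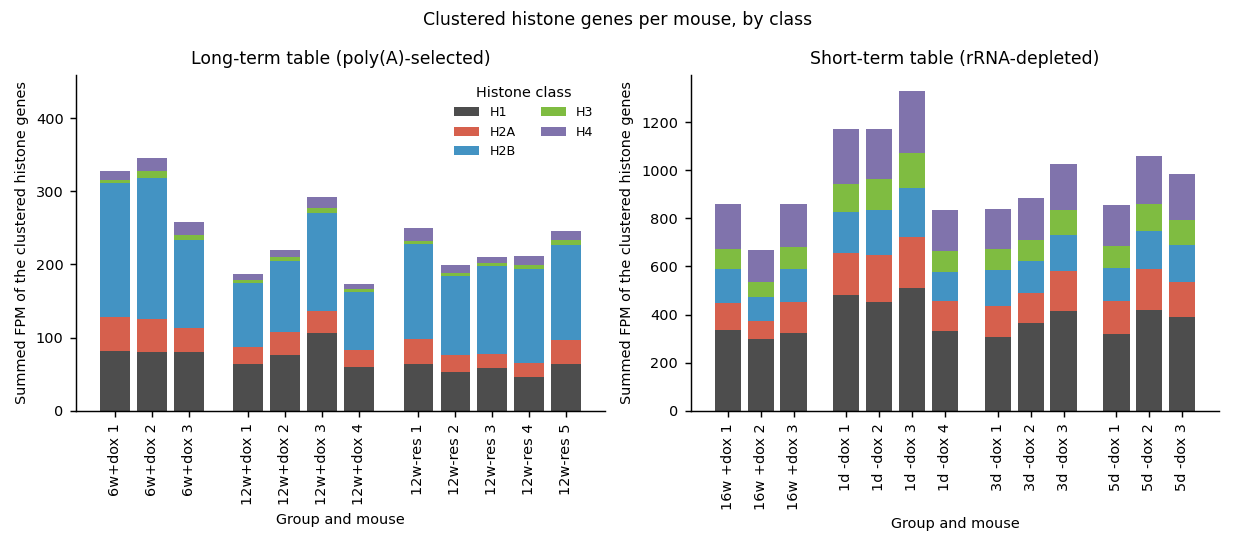
Summed FPM of the clustered histone genes in each mouse of the long-term (left) and short-term (right) table, stacked by histone class; each bar is 1 mouse. The 5 12w-res mice stood at 199 to 250 FPM, within the 173 to 292 FPM of the 12w+dox mice, and 3 of the 4 1d -dox mice stood above every 16w +dox mouse.

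The first comparison asked how the members stood in mice taken off dox for 6 weeks after 6 weeks of it, against mice kept on dox for 12 weeks. In 12w-res against 12w+dox mice, the median fitted log2 fold change of the members was 0.02, against 0.00 over all 15315 genes, and 19 of 37 were above 0 (49.7% of all genes). Limma was run over all genes and a change was called where the Benjamini-Hochberg adjusted p fell under 0.05 and the log2 fold change exceeded 1 in size. By this rule 3 members were lower (8.11%, against 5.04% of all genes) and 0 were higher (against 6.24% of all genes). At an unadjusted p under 0.05, 6 members were higher and 11 lower, where 24.3% and 23% of all genes were. DESeq2 on the recovered reads called 2 higher and 6 lower, where it called 8.42% and 6.2% of all genes, and edgeR 1 higher and 5 lower (8.16% and 5.96% of all genes). The medians of the classes were -0.57 for H1, -0.14 for H2A, 0.02 for H2B, 0.36 for H3 and 0.27 for H4.

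Genes that share their timing with the clustered histone genes were lower in the same mice. Of 25 S phase genes (DNA replication and nucleotide synthesis genes such as Rrm2, Exo1 and Mcm3), all 25 fell, with a median of -2.37. The fitted log2 fold changes were -3.18 for Rrm2, -3.09 for Exo1 and -3.06 for Mcm3. The summed level of this list was 1146, 1460, 1516 and 1396 FPM in the 12w+dox mice and 318 to 341 FPM in the 12w-res mice. Mki67, a marker of cycling cells, had a mean of 110 FPM in 12w+dox and 10.2 FPM in 12w-res mice. The ratio of the summed members to the summed S phase genes was 0.124 to 0.193 in 12w+dox and 0.616 to 0.774 in 12w-res mice. Without the 5 members with most reads, the other 32 summed to 31.7 ± 7.09 FPM in 12w+dox (SD, n = 4) and 35.8 ± 10.05 FPM in 12w-res mice (n = 5), and the ratio was 0.0178 to 0.0272 and 0.0727 to 0.146. Both ratios were higher in every 12w-res mouse than in every 12w+dox mouse. The summed members overlapped between these groups, with and without those 5 members. These libraries were poly(A)-enriched, and 11 members with an AATAAA end or a transcript of more than 1 exon held 88.0% of the member reads. The ratios therefore do not give the level of member mRNAs without a poly(A) tail, which was not measured apart.

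**Figure D2:**
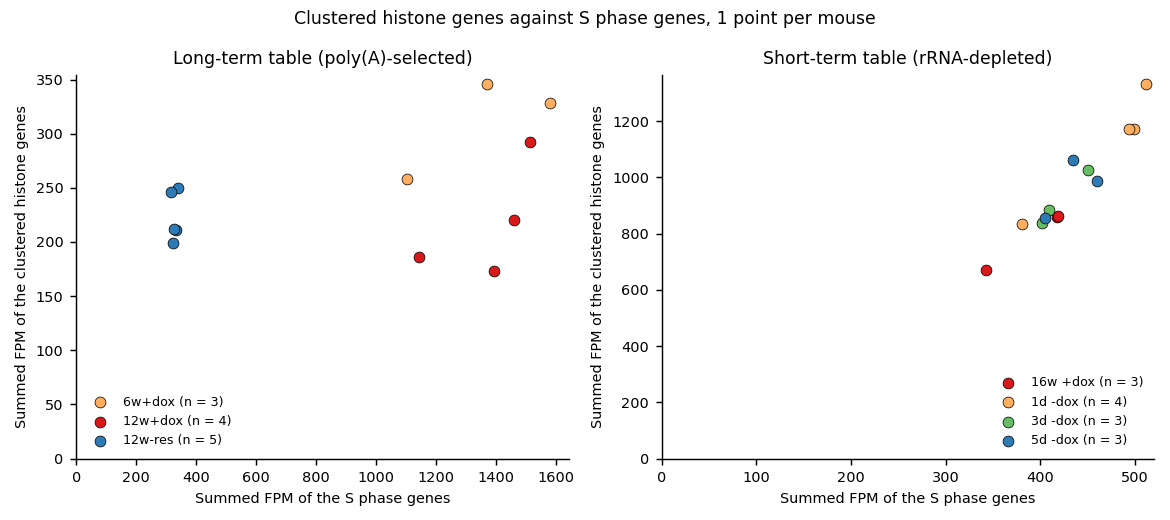
Summed FPM of the clustered histone genes (vertical axis) against summed FPM of the S phase genes (horizontal axis), 1 point per mouse, coloured by group. The 5 12w-res mice lie at 318 to 341 FPM of S phase genes, to the left of the 6w+dox and 12w+dox mice, at a height the 12w+dox mice share; the short-term mice lie between 342 and 512 FPM.

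The 3 members that fell were low even before. Hist1h3g, an H3 gene (mm10, chr13:23535422-23535951, + strand, 1 exon), was at 0.733, 1.28, 2.53 and 1.79 FPM in the 12w+dox mice and at 0.0520, 0, 0, 0 and 0.111 FPM in the 12w-res mice. All 12w+dox mice were above all 12w-res mice. Its fitted log2 fold change was -1.90 ± 0.33 (SE, limma, adjusted p = 0.000559). Counted as reads, 211 in the 4 12w+dox mice stood against 3 in the 5 12w-res mice, which after scaling was 51.0-fold higher in 12w+dox (95% counting interval 17.2 to 249), a far larger ratio than the fit gave because the fit adds 0.5 FPM to each value.

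Hist1h2ah and Hist1h2bp fell as well. Hist1h2ah, an H2A gene (chr13:22035164-22035568, - strand), was at 0.523, 0.816, 0.678 and 0.419 FPM in the 12w+dox mice, and 4 of the 5 12w-res mice had 0 reads. The remaining 12w-res mouse, replicate 1, had 3 reads. The fitted change was -1.06 ± 0.23 (adjusted p = 0.00283), and the scaled reads were 19.3-fold higher in 12w+dox mice (counting interval 6.38 to 95.7). Hist1h2bp, an H2B gene with a spliced transcript (chr13:21787461-21789213, + strand), was at 0.663, 1.43, 1.17 and 1.12 FPM in 12w+dox and at 0.520, 0, 0, 0.177 and 0.166 FPM in 12w-res mice, a fitted change of -1.27 ± 0.27 (adjusted p = 0.00240). Hist1h3c had 52 reads in the 12w+dox and 2 in the 12w-res mice, but its fitted change of -0.71 did not pass (adjusted p = 0.0568). A count of 0 in a mouse allows up to 3 reads, and all these intervals cover counting error only.

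Several of the members with most reads had fitted changes above or near 0. Hist1h2bc, an H2B gene with a spliced transcript, was at 33.4, 29.6, 50.4 and 23.0 FPM in 12w+dox and 57.8, 54.9, 65.3, 66.5 and 70.7 FPM in 12w-res mice, without overlap. Its fitted log2 fold change of 0.93 ± 0.20 had an adjusted p of 0.00275 but stayed under the minimum of 1. Hist1h2be, also H2B, was at 3.25, 2.59, 3.73 and 2.88 FPM in 12w+dox and 9.05, 5.02, 5.28, 5.43 and 5.42 FPM in 12w-res mice, again without overlap (0.83 ± 0.20, adjusted p = 0.00539). These were the only 2 members of which every 12w-res mouse was above every 12w+dox mouse (5.41%, against 17.1% of all genes), and for 8 members every 12w-res mouse was below (21.6%, against 17.4%). Hist1h2be overlaps a predicted gene. Hist2h2be had a mean of 24.6 FPM and 25.0 FPM in these groups, and its log2 fold change was 0.02 ± 0.11. For Hist1h1c the change was -0.39 ± 0.16 (adjusted p = 0.0682), for Hist3h2a -0.20 and for Hist3h2ba -0.28.

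**Figure D3:**
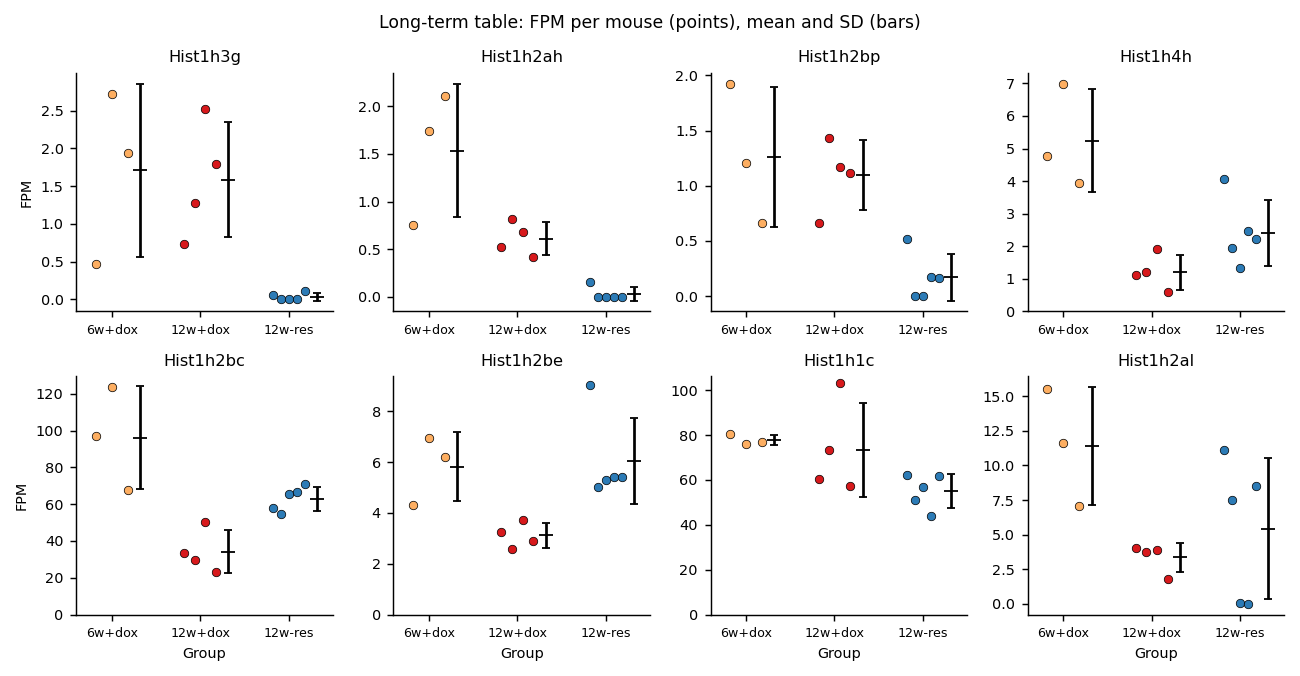
FPM of 8 members in each mouse of the long-term table (points), with the mean and SD of each group (bars), each panel on its own axis. Hist1h3g, Hist1h2ah and Hist1h2bp are near 0 in 12w-res mice, Hist1h2bc and Hist1h2be are above 12w+dox mice there, and Hist1h2al is split in 12w-res mice, with 3 mice at 7.50 to 11.1 FPM and 2 at 0 to 0.0455 FPM.

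Hist1h2al stood apart from the others. It is annotated as a processed pseudogene away from the clusters (mm10, chr13:51202727-51203065, - strand). In the 12w-res mice it was at 11.1, 7.50, 0.0455, 0 and 8.51 FPM, so that replicates 3 and 4 had 1 and 0 reads while the others had 142 to 214. The 12w+dox mice had 1.76 to 4.05 FPM and the 6w+dox mice 7.04 to 15.5 FPM. Its neighbour Spin1 had 60.3 to 80.5 FPM in the 12w-res mice and was not split.

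Other parts of the histone supply pathway moved in part. Of 11 replication-independent histone genes, 5 fell: Cenpa, the centromeric H3 (-3.58), H1fx (-2.25), H2afx (-1.50), H2afv (-1.47) and H2afz (-1.20). Of 25 histone chaperones and assembly factors, 6 fell, led by Chaf1b (-3.49) and Chaf1a (-2.53), subunits of the CAF-1 complex that loads new H3 and H4 behind the replication fork, and by Asf1b (-3.32), which hands histones to it. Of 23 genes for histone gene transcription and histone mRNA processing, 4 fell: Slbp, the stem-loop binding protein (-1.58), Zfp473, a part of the U7 snRNP machinery (-1.24), Casp8ap2 (-1.23) and the exonuclease Eri1 (-1.10). None of the genes of these 3 lists rose by limma; at an unadjusted p under 0.05, 1 gene of each list was higher. Some S phase genes are also on the chaperone list, such as Mcm2.

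Other cell types were at other levels in these 2 groups. In 12w-res against 12w+dox mice all 6 fibroblast and pericyte markers rose (summed 795 to 1267 against 140 to 437 FPM) and 5 of 6 endothelial markers (189 to 262 against 58.6 to 125 FPM). The melanotroph and corticotroph markers, of which 2 of 6 rose, summed to 458754 to 581046 against 96004 to 198294 FPM. Their sum is weighted to Pomc, which made up 39.1 to 43.2% of gene reads in 12w-res and 12.9 to 23.0% in 12w+dox mice. Of these 6 markers, 3 had fitted changes below 0, 1 of them at an unadjusted p under 0.05. Of the markers of other anterior lobe hormone cells 2 of 8 rose, and of 7 macrophage, 5 neural lobe, 3 lymphocyte and 1 erythroid markers 0 were called by limma (6, 0, 0 and 0 were higher at an unadjusted p under 0.05). The part of these cells in the changes of the members was not tested. With scaling by the total of recovered reads, which moved the median of all genes to -0.61, the median of the members was -0.34 and 8 members were lower (22% of all genes) and 0 higher (1.59%). Females alone (3 against 2 mice) gave a median of -0.05 (all genes 0.00), with 1 member called higher and 2 lower (775 and 637 of all 15315 genes).

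The second comparison set the 12w-res mice against the 6w+dox mice. The median fitted log2 fold change was -0.50, against -0.02 for all genes, and 10 of 37 members were above 0 (48.4% of all genes). By limma 6 members fell (16.2%, against 5.82% of all genes) and 0 rose (against 5.81%). At an unadjusted p under 0.05, 4 members were higher and 15 lower, where 21.8% and 22.2% of all genes were, and DESeq2 and edgeR called 0 higher (7.09% and 6.81% of all genes) and 9 and 8 lower (7.26% and 6.89%). The 6 were Hist1h3g (-1.89), Hist1h2ah (-1.88, adjusted p = 8.13e-05), Hist1h2bp (-1.38), Hist1h3c (-1.22), Hist1h4k (-1.02, adjusted p = 0.0433) and Hist1h4h (-1.01, adjusted p = 0.0216). They include H2A, H2B, H3 and H4 genes and no H1 gene. The class medians were -0.63 for H1, -0.62 for H2A, -0.15 for H2B, -0.43 for H3 and -0.44 for H4. Of the 4 H1 genes, 3 were lower at an unadjusted p under 0.05 and 1 was above 0. Hist1h1c was at 80.5, 76.1 and 77.0 FPM in 6w+dox and 62.1, 50.9, 56.7, 43.9 and 61.8 FPM in 12w-res mice. For 7 members every 12w-res mouse was below every 6w+dox mouse (15.9% of all genes) and for 2, the H3 genes Hist1h3e and Hist2h3b, every mouse was above (16.9%). Hist1h2ah was at 0.757, 1.74 and 2.11 FPM in the 6w+dox mice, above all 12w-res mice, and its scaled reads (103 against 3) were 51.2-fold higher in 6w+dox (counting interval 17.04 to 252). The limit of windows shared with other genes holds for these reads too. Hist1h3g (116 against 3 reads) was 57.7-fold higher (19.3 to 284). Hist1h3c had 53 reads against 2, a ratio of 39.5 (10.4 to 335). The selection through the dox groups holds for these ratios too.

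The H4 genes Hist1h4h and Hist1h4k illustrate smaller shifts. Hist1h4h was at 4.77, 6.99 and 3.93 FPM in 6w+dox and at 4.06, 1.95, 1.32, 2.48 and 2.21 FPM in 12w-res mice, so the groups overlapped by 1 mouse. Hist1h4k was at 1.98, 2.14 and 4.84 FPM against 1.66, 0.845, 0.728, 2.01 and 0.718 FPM. With each of the 8 mice left out in turn, the log2 fold change of Hist1h4k was -1.22 to -0.66 and its call was kept in 3 fits, being lost without replicate 2 or 3 of 6w+dox or replicate 2, 3 or 5 of 12w-res. That of Hist1h4h was -1.19 to -0.80 and its call was kept in 5, being lost without replicate 2 of 6w+dox or replicate 2 or 3 of 12w-res. Of the 25 S phase genes, 24 fell here, with a median of -2.18. In 6w+dox mice the neural lobe markers (47.5 to 137 FPM) and the markers of other anterior lobe hormone cells (58669 to 94156 FPM) were above those of 12w-res mice (7.13 to 11.3 and 17320 to 34968 FPM), and the part of those cells was not tested. The ratio of members to S phase genes was 0.207 to 0.252 in 6w+dox mice, below every 12w-res mouse.

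The third comparison followed the tumors between 6 and 12 weeks of dox. The median fitted change of the members in 12w+dox against 6w+dox mice was -0.22 (all genes -0.01), with 11 of 37 above 0 (49.4% of all genes), and that of the S phase genes 0.08, with 1 of 25 higher (Ccne2, 1.17). By limma 2 members fell (5.41%, against 4.04% of all genes) and 0 rose (against 3.15%). At an unadjusted p under 0.05, 0 members were higher and 8 lower, where 17.1% and 19.3% of all genes were, and DESeq2 and edgeR called 0 higher (3.94% and 3.42% of all genes) and 4 and 3 lower (5.54% and 5% of all genes). Hist1h4h was at 4.77, 6.99 and 3.93 FPM in 6w+dox and at 1.12, 1.2, 1.91 and 0.586 FPM in 12w+dox mice, without overlap (-1.77 ± 0.32, adjusted p = 0.00246). Hist1h2bc was at 97.2, 124 and 67.5 FPM against 33.4, 29.6, 50.4 and 23.0 FPM, also without overlap (-1.50 ± 0.23, adjusted p = 0.000923). Hist1h2bc was thus lowest in the 12w+dox mice of the 3 groups. For 6 members every 12w+dox mouse was below every 6w+dox mouse (12.4% of all genes) and for 0 above (12.9%). Of the markers of other anterior lobe hormone cells 6 of 8 fell (summed 1217 to 13053 FPM at 12w+dox against 58669 to 94156 FPM at 6w+dox), and all 5 neural lobe markers fell (4.55 to 13.9 against 47.5 to 137 FPM). Of the endothelial markers 3 of 6 fell (58.6 to 125 against 174 to 227 FPM) and of the fibroblast and pericyte markers 2 of 6 (140 to 437 against 342 to 349.9 FPM). The part of these cells was not tested. Without replicate 1 of 6w+dox, 4 members were called lower (583 of all 15263 genes).

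In the short-term experiment the comparisons asked what followed within days of dox removal in large tumors, where Rb1 itself was not called. All 3 comparisons with 16w +dox mice share those 3 mice, and their values for the members are therefore given side by side and not as separate support for each other. In 1d -dox against 16w +dox mice 55 of 58 members had a fitted change above 0 (49.5% of all genes) and the median was 0.49 (all genes 0.00). At 3 days 50 of 58 were above 0 (51.9% of all genes) with a median of 0.19 (all genes 0.01), and at 5 days 56 of 58 (49.8% of all genes) with a median of 0.27 (all genes 0.00).

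Few single members passed the test. At 1 day limma called 0 members higher (against 0.00716% of all 13958 genes) and 0 lower (0.0358%). At an unadjusted p under 0.05, 40 of 58 members were higher (6.78% of all genes) and 0 lower (6.28%), and for 11 members every 1d -dox mouse was above every 16w +dox mouse (19%, against 5.6% of all genes). DESeq2 called 7 members higher (0.208% of all genes) and edgeR 0. At 3 days limma called 0 members higher (0.0788% of all genes) and 0 lower (0.0502%), 12 were higher at an unadjusted p under 0.05 (7.95% of all genes) and 0 lower (8.7%), DESeq2 called 2 higher (0.516%) and edgeR 0 (0.0573%). For 8 members every 3d -dox mouse was above every 16w +dox mouse (10.6% of all genes). At 5 days limma called 1 member higher (1.72%, against 0.086% of all genes) and 0 lower (0.107%), with 16 members higher at an unadjusted p under 0.05 (7.2% of all genes) and 0 lower (6.33%). For 19 members every 5d -dox mouse was above every 16w +dox mouse (32.8%, against 9.64% of all genes). DESeq2 called 4 members higher (0.258% of all genes) and edgeR 1 (0.107%).

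Replicate 2 of 16w +dox, the mouse with the lowest summed members, carried part of these counts. Without it 23 of 58 members at 1 day, 6 at 3 days and 7 at 5 days were higher at an unadjusted p under 0.05. The medians were 0.32, 0.04 and 0.13 (all genes 0.00, 0.01 and 0.00). The shares of all genes at that p are not given for these fits. With all mice kept they were 6.78%, 7.95% and 7.2%. Without replicate 4 of 1d -dox or without replicate 3 of 16w +dox, limma called 4 members higher at 1 day. Over all genes it called 6 of 13976 and 7 of 13938 higher in these 2 fits. At 5 days it called 0 members without replicate 1 of 16w +dox or without any one of the 5d -dox mice. It called 3 members higher without replicate 3 of 16w +dox (17 of all 13938 genes). The 16w +dox mice also differed from 1d -dox and 5d -dox mice in sex and in other cells: the markers of other hormone cells summed to 198 to 239 FPM at 16w +dox, 23.0 to 106 FPM at 1 day, 167 to 885 FPM at 3 days and 25.6 to 102 FPM at 5 days, and the part of those cells was not tested. Endothelial markers summed to 23.6 to 41.3 FPM at 16w +dox, 13.2 to 17 FPM at 1 day, 22.5 to 41.9 FPM at 3 days and 10.6 to 14.5 FPM at 5 days.

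H2A genes had the largest fitted changes of the classes. Their median was 0.92 at 1 day, 0.60 at 3 days and 0.58 at 5 days. It was 0.50, 0.17 and 0.23 for H1, 0.39, 0.14 and 0.27 for H2B, 0.59, 0.23 and 0.38 for H3 and 0.38, 0.11 and 0.17 for H4. Of the 14 H2A genes, 12, 9 and 10 were higher at an unadjusted p under 0.05, whereas of the 12 H4 genes 7, 0 and 0 were. All 10 H3 and all 5 H1 genes had fitted changes above 0 at each time.

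**Figure D4:**
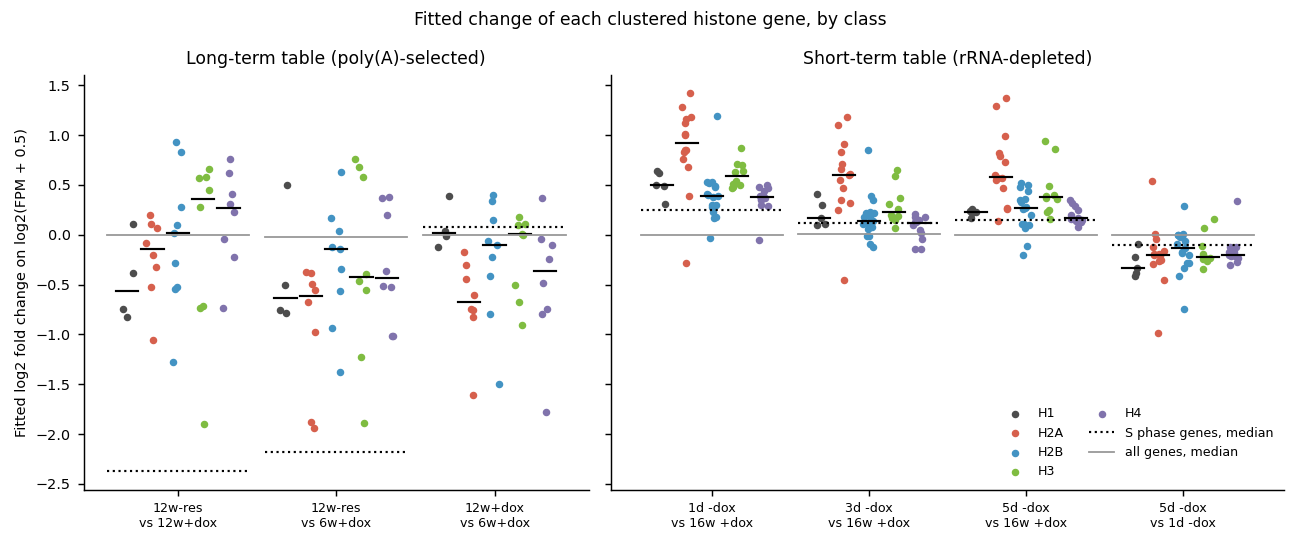
Fitted log2 fold change of each member (points, coloured by class, with the class median as a short black line) in every comparison of the long-term (left) and short-term (right) table, with the median of the S phase genes (dotted line) and of all genes (grey line). In 12w-res mice the S phase genes lie at -2.37 and -2.18 while the members have medians of 0.02 and -0.50, and at 1 day the H2A genes reach a median of 0.92.

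Hist1h2ad, an H2A gene (chr13:23574381-23574952, + strand), was the member that passed the test at 5 days. It was at 0.275, 0.374 and 0.970 FPM in the 16w +dox mice, 1.86, 2.29, 2.42 and 1.31 FPM at 1 day, 1.30, 1.37 and 2.45 FPM at 3 days and 1.93, 2.03 and 1.89 FPM at 5 days. Every mouse without dox was above every 16w +dox mouse. The fitted log2 fold changes were 1.28 ± 0.24 (adjusted p = 0.0570), 1.11 ± 0.25 (adjusted p = 0.0724) and 1.29 ± 0.25 (adjusted p = 0.0403). Hist1h2ah showed the largest fitted change at each time, from 0.574, 0.535 and 1.79 FPM at 16w +dox to 3.27, 3.73, 4.14 and 1.89 FPM at 1 day, 1.82, 2.73 and 3.46 FPM at 3 days and 2.27, 3.77 and 3.24 FPM at 5 days. Again no mouse without dox was as low as a 16w +dox mouse, and the changes of 1.42, 1.18 and 1.37 had adjusted p of 0.0867, 0.104 and 0.0768.

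Hist2h2ab and Hist2h3b had adjusted p under 0.05 but fold changes under the minimum. Hist2h2ab, an H2A gene on chromosome 3, was at 1.97, 2.54 and 2.86 FPM at 16w +dox and 4.79, 4.28, 6.46 and 6.17 FPM at 1 day (1.00 ± 0.17, just under 1; adjusted p = 0.0448). Hist2h3b, an H3 gene, was at 3.19, 3.80 and 3.39 FPM at 16w +dox and 6.03, 7.74 and 7.62 FPM at 5 days (0.94 ± 0.17, adjusted p = 0.0333). No 100-base stretch of the Hist2h3b transcript is unique in the annotation, so its reads cannot be set apart from those of a near-identical copy. Hist1h2ai was at 3.89, 3.88 and 6.58 FPM at 16w +dox and 10.8, 12.0, 14.3 and 7.83 FPM at 1 day (1.16 ± 0.21, adjusted p = 0.0543).

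The members with the highest levels shifted less. Hist1h1c was at 129, 111 and 120 FPM at 16w +dox, 189, 184, 191 and 120 FPM at 1 day, 113, 142 and 152 FPM at 3 days and 121, 170 and 144 FPM at 5 days. Replicate 4 at 1 day lay within the 16w +dox mice and the other 3 above all of them. Its fitted changes were 0.49 ± 0.16, 0.17 ± 0.17 and 0.26 ± 0.17, with adjusted p of 0.207 or more. The linker histone genes Hist1h1d and Hist1h1e had changes of 0.62 and 0.31 at 1 day, and Hist1h4d, Hist1h2ak and Hist2h2bb of 0.39, 0.68 and 0.39, none of which passed. Hist2h2ac went against the other H2A genes at 1 day and 3 days (-0.28 and -0.46, not past the test), and its level varied from 9.68 to 25.2 FPM among the 1d -dox mice.

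Most H2A genes of the clusters lie head to head with an H2B gene and share the stretch between the starts, so the 2 genes of each such pair were set side by side, a comparison chosen after the values were seen. There were 10 H2A and H2B pairs, with 164 to 249 bases between the starts. They include Hist3h2a with Hist3h2bb-ps, an H2B copy annotated in RefSeq as a transcribed pseudogene. The fitted change of the H2A gene was above that of its H2B partner in 8 of 10 pairs at 1 day, 8 at 3 days and 9 at 5 days, with medians of 0.93, 0.53 and 0.66 for H2A and 0.35, 0.10 and 0.27 for H2B. Hist1h2ah stood at 1.42 at 1 day and its partner Hist1h2bk at 0.30, with 178 bases between them. Hist1h2ak with Hist1h2bn, and Hist2h2ac with Hist2h2be, had the larger change in the H2B gene at 1 day. In 5d -dox against 1d -dox mice, both female, the H2A gene was above in 4 of 10 pairs. These counts are given without a test, since the 10 pairs come from the same mice.

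**Figure D5:**
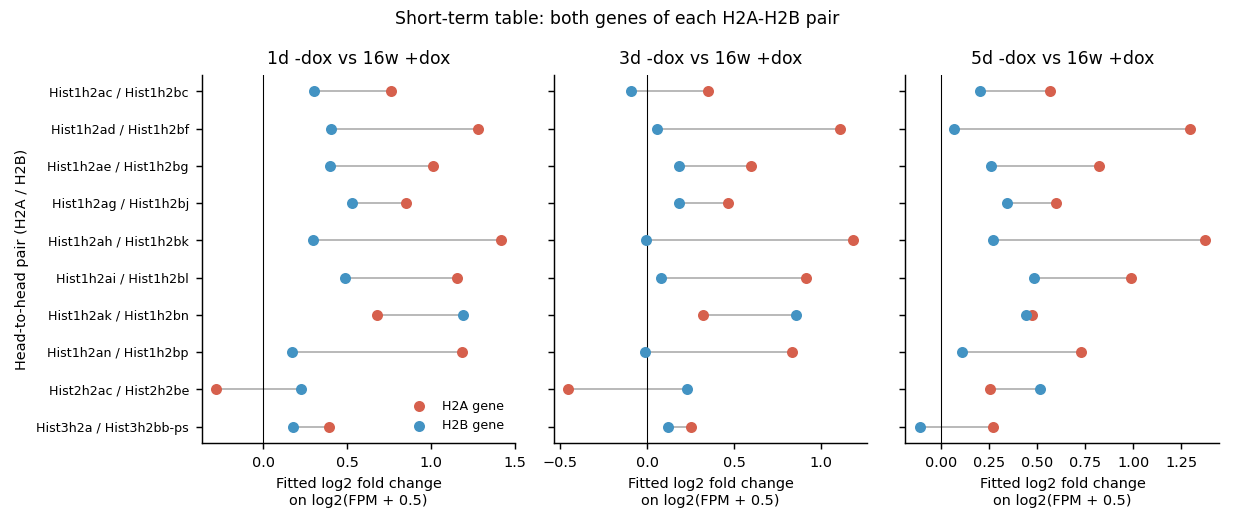
Fitted log2 fold change of the H2A gene and the H2B gene of each of the 10 head-to-head pairs, 1 panel per comparison with 16w +dox mice, joined by a line. Hist3h2bb-ps, the partner of Hist3h2a, is annotated as a pseudogene. The H2A point lies to the right of the H2B point in 8, 8 and 9 of 10 pairs.

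The share of a member's transcript that was found in no other gene moved with these changes. Over the annotated transcripts, a median of 68.5% of 100-base windows of a member was found in no other gene, with 19 members under 50%, and the class medians were 99.2% for H1, 43.9% for H2A, 68.9% for H2B, 60.0% for H3 and 81.4% for H4. Hist1h2ah stood at 10.5%, Hist1h2ai at 11.6% and Hist1h2ad at 36.4%. Across the 58 members Spearman's rho between this share and the fitted change was -0.38 at 1 day, -0.31 at 3 days and -0.31 at 5 days, a description over genes that share their libraries. The 39 members with at least 50% unique windows had medians of 0.47, 0.17 and 0.25 and the 19 others of 0.83, 0.55 and 0.55. Of those 39, 36 were above 0 at 1 day. The part of shared reads in the larger H2A changes was not tested.

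S phase genes had smaller fitted changes than the members in the same mice. Their medians were 0.25, 0.12 and 0.14 at 1, 3 and 5 days, with 24 of 24 above 0 at 1 and 5 days and 19 of 24 at 3 days, and limma called 0 of them (10, 2 and 1 were higher at an unadjusted p under 0.05). Their summed level was 417, 342 and 419 FPM at 16w +dox and 499, 494, 512 and 381 FPM at 1 day. Replicate 2 of 16w +dox and replicate 4 of 1d -dox were the lowest of their groups in this sum too. The ratio of members to S phase genes was 1.96 to 2.06 at 16w +dox, 2.19 to 2.60 at 1 day, 2.09 to 2.28 at 3 days and 2.11 to 2.44 at 5 days, so that it was lowest in the 16w +dox mice. Mean Mki67 was 107, 128, 152 and 109 FPM and mean Pcna 24.7, 31.8, 24.7 and 28.5 FPM in the 4 groups.

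Of the other histone lists, 1 gene was called. H1fx, a replication-independent linker histone gene, rose at 5 days from a mean of 9.97 FPM at 16w +dox to 26.4 FPM (1.36 ± 0.14, adjusted p = 0.000657). At 1 day it stood at 18.7 FPM (0.88, adjusted p = 0.0256, under the minimum fold change). Of 22 genes for histone gene transcription and mRNA processing 0 were called by limma in any of the 3 comparisons (medians 0.04, 0.09 and 0.03), and of 23 chaperones and assembly factors 0 (0.06, 0.05 and 0.01). At an unadjusted p under 0.05, 2 of the processing genes were higher at each time, and 0, 0 and 3 were lower at 1, 3 and 5 days. Of the chaperones 5, 2 and 3 were higher and 2, 1 and 0 lower. Of 11 replication-independent histone genes 7, 1 and 4 were higher and 0 lower, with medians of 0.25, 0.02 and 0.12, and 10 of the 11 were above 0 at 1 day.

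Within 1 sex, 5d -dox mice could be compared with 1d -dox mice. Only 7 of 58 members were above 0 (50.2% of all genes), the median was -0.20 (all genes 0.00), and limma called 0 higher and 0 lower (0.00716% of all genes in each direction). At an unadjusted p under 0.05, 0 members were higher (3.65% of all genes) and 2 lower (2.67%), DESeq2 called 1 lower (0.0215%) and edgeR 0 (0.00716%). For 1 member every 5d -dox mouse was below every 1d -dox mouse (3.51% of all genes) and for 0 above (4.29%). The smallest p was that of Hist1h2al, at 12.7, 6.29, 13 and 8.98 FPM at 1 day and 4.07, 5.87 and 4.45 FPM at 5 days (-0.98 ± 0.24, adjusted p = 0.438). Hist1h2ad (0.01) and Hist1h2ah (-0.05) hardly differed between these 2 groups, and the linker histone genes Hist1h1d (-0.39) and Hist1h1c (-0.23) did not pass. The comparison of 3d -dox with 16w +dox mice, both male, is the other one within 1 sex, and there the median was 0.19.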

How the data were processed

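Pituitaries were sequenced as paired-end 150-base reads on a NovaSeq6000. The authors aligned reads with STAR to mm10, counted them over RefSeq genes and deposited normalised counts (FPM), a signal scaled by DESeq2 size factors, with 1 table per experiment. The counting tool and its use of strand are not given in the sources used here. The values were whole multiples of 1 read (within 0.1 read) for 100% of values, so the reads were recovered. For the short-term libraries, 4 lines stand for no gene and held 31.0 to 44.2% (unmapped), 5.63 to 7.93% (multimapping), 23.8 to 33.9% (no feature) and 0.194 to 0.262% (ambiguous) of the reads of a library, and 2 lines of the long-term table had no name. They were left out of library sizes and tests. Reads that fit several near-identical members can be among the multimapping ones.

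A gene entered the tests if over 50% of the mice of some group had 10 reads or more. In R 4.3.3, limma 3.58.1 was fitted to log2(FPM + 0.5) jointly for the groups of each table, with Benjamini-Hochberg adjustment over all genes tested. Calls needed an adjusted p under 0.05 together with a log2 fold change above 1 in size. All 37 and all 58 members passed the filter. All 15315 genes of the long-term table passed it too, so no member listed there could fail. Fold changes are on the log2(FPM + 0.5) scale and understate the change of low genes. The clustered histone genes, the other gene lists and the tests were chosen with earlier results of these data known. Members named are those called in a comparison, the 5 of highest level per kb in each table and, where none was called, the 3 of smallest p; Hist1h2al, Hist1h2bc, Hist1h2be, Hist1h2ah, Hist1h2ai, Hist2h2ac, the head-to-head pairs and the 16w +dox replicates were described after their values were seen. On simulated data for 12w-res against 12w+dox (15033 genes), the limma script recovered 84 of 100 genes changed 2.5-fold and 98 of 100 changed 4-fold, with 2 other genes called. For 1d -dox against 16w +dox (13689 genes) it recovered 87 and 98, with 3 others. The changed genes were drawn only from genes with a mean of over 50 reads. The recovered counts therefore do not give the recovery of members with few reads. Among the 37 long-term members, 29 had under 50 reads in the median mouse.

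Alternatives were DESeq2 1.42.0 and edgeR 4.0.16 (quasi-likelihood, TMM) on the recovered reads, scaling by totals, other filters and pseudocounts, only the groups compared, a replicate block, sex as a covariate, females only, no minimum fold change and each mouse left out. No 2 replicates were near-identical (chi-square per degree of freedom of 4.01 or more). Sequences came from GENCODE vM21 transcripts and RefSeq promoters (GRCm38.p6); protein sequences were not used here. Exact counting intervals are at the 95% level.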

Additional observations from a re-analysis of the deposited data

Results flagged for a closer look

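In 7 of 72 groups of 4 or 5 mice that were checked, the highest or lowest mouse stood farther from the others than Dixon's 95% limit for a group of that size. Chance alone flags about 1 in 20 groups. Among the 12w-res mice, replicate 1 was the highest for Hist1h2ah (0.156 FPM, all others at 0, ratio of gap to range 1) and for Hist1h2be (9.05 FPM, ratio 0.898), and replicate 4 was the only mouse with reads of Hist1h3c (0.118 FPM, ratio 1). Hist1h2ah and Hist1h3c rest on 3 and 2 reads there. Among the 12w+dox mice, replicate 4 was the lowest for Hist1h2al (1.76 FPM, ratio 0.862).

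Among the 1d -dox mice, replicate 4 was the lowest for Hist1h1c (120 FPM against 184 to 191 FPM in the other 3, ratio 0.907). Replicate 2 was the highest for Hist1h2bn (17.3 FPM against 2.69 to 4.59 FPM, ratio 0.870) and the lowest for GFP (310 FPM, ratio 0.836). Hist1h2bn was also at 11 FPM in replicate 1 of 3d -dox, against 2.24 and 2.92 FPM in the other 3d -dox mice. These mice were kept in all values.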

How the results depend on the processing

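The median long-term member had 17.5 reads in the median mouse. For 12w-res against 12w+dox, 3 members were called, and 8 by DESeq2, 6 by edgeR, 8 with totals of recovered reads, 8 with a pseudocount of 0.1, 1 with a pseudocount of 1, 9 with no minimum fold change and 0 with at least 10 reads in every sample, which removes the members that fell to 0. Of all 15315 genes, 1223 were called higher and 939 lower with a pseudocount of 0.1, and 740 and 671 with 1. With no minimum fold change 2975 (19.4%) were higher and 2807 (18.3%) lower, against 3 and 6 members (8.11% and 16.2%). With at least 10 reads in every sample 809 and 602 of 13237 genes were called. The median of the members moved from 0.02 to -0.34 with totals. For 12w-res against 6w+dox, 6 were called, and 2 with at least 10 reads in every sample and 2 with a pseudocount of 1. Over all genes these 2 settings called 658 higher and 647 lower of 13237, and 715 and 731 of 15315. For 12w+dox against 6w+dox, 2 were called, and 4 by DESeq2, 4 with a pseudocount of 0.1 and 6 with no minimum fold change. Of all 15315 genes, 596 were higher and 734 lower with that pseudocount, and 1600 and 1833 with no minimum fold change. S phase genes called stayed at 23 to 25 of 25 and 22 to 25 of 25 in the comparisons of 12w-res with 12w+dox and 6w+dox under the alternatives run. For 1d -dox, 0 were called against 16w +dox, and 7 by DESeq2. With a pseudocount of 0.1, 3 were called, 4 with the replicate block and 1 with no minimum fold change. In that order these 3 settings called 8, 5 and 6 of all 13958 genes higher and 6, 3 and 8 lower. For 3d -dox, 0 were called, and 2 by DESeq2. For 5d -dox, 1 was called against 16w +dox, and 4 by DESeq2, 0 with totals, 2 with a pseudocount of 0.1, 0 with a pseudocount of 1, 0 with only the groups compared, 2 with the replicate block and 2 with no minimum fold change. Of all 13958 genes, 8 were called higher and 14 lower with totals, 17 and 20 with a pseudocount of 0.1, and 10 and 9 with 1. Only the groups compared gave 1 and 4, the replicate block 11 and 7, and no minimum fold change 47 and 24. For 5d -dox against 1d -dox, 0 were called, and 1 by DESeq2. Replicate numbers did not pair the mice: the deviations of same-numbered mice correlated at -0.165 to 0.237 in the long-term (1 of 10 pairs over 0.1) and -0.208 to 0.168 in the short-term table (3 of 18). The block changed no other count by over 1.5 times. Except where the alternative's own construction shows it, the cause was not tested.

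Members at an unadjusted p under 0.05, an alternative chosen after seeing the data, went from 12 to 19 (3d -dox) and from 16 to 10 (5d -dox against 16w +dox) with totals, and from 2 to 5 by DESeq2, 5 by edgeR and 7 with totals (5d -dox against 1d -dox). Members above 0 went from 7 to 4 with totals in that last comparison. With each mouse left out in turn, calls ranged from 2 to 4, 4 to 9 and 2 to 4 in the long-term comparisons with 12w+dox, with 6w+dox, and between those, and from 0 to 4, 0 to 0, 0 to 3 and 0 to 0 at 1 day, 3 days, 5 days and 5d -dox against 1d -dox. In that order the medians ranged from -0.07 to 0.03, -0.57 to -0.30, -0.39 to -0.12, 0.32 to 0.62, 0.04 to 0.30, 0.13 to 0.39 and -0.32 to -0.10. In the short-term comparisons members above 0 ranged from 54 to 57, 35 to 54, 48 to 57 and 5 to 15, and members at an unadjusted p under 0.05 from 23 to 50, 6 to 15, 7 to 18 and 1 to 22. The 22 came without replicate 4 of 1d -dox, and the 1 without replicate 1 or 3 of 1d -dox or replicate 1 of 5d -dox. At 5 days 8 remained without replicate 2 of 5d -dox. The shares of all genes are not given beside these member counts, so the counts are not a result about the members. Of 176 alternative fits of 27 values of single named members, 145 kept the call, 13 lost it, 18 gained it and 0 changed direction.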
